A study of Mus musculus with 8 samples.

Results

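OT-I CD8+ T cells that carried a single guide RNA against Cs, Mdh2, Idh3g, Slc25a11, Ndufv3 or Dhodh were compared with cells that carried a single nontargeting guide (sgNT). These 6 genes encode enzymes, a carrier and a respiratory chain subunit of the mitochondrion, and each was targeted by 3 guides, which gives 18 of the 280 guide features. Cells were taken when exactly 1 guide had been called and when mitochondrially encoded genes held at most 10% of their unique molecular identifiers (UMIs, 1 per captured mRNA molecule). This gave 1438 of 23337 cells, against 2730 sgNT cells.

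The cells came from Cas9 knock-in OT-I mice, whose CD8+ T cells recognise ovalbumin, and they had been transduced with lentiviral guides to metabolic genes, marked by a CD90.1 reporter. They were transferred into mice with orthotopic KPC_OVA tumours, a pancreatic ductal adenocarcinoma line that expresses ovalbumin, and CD90.1+ cells were sorted from the primary tumour 7 days after transfer. Anti-PD-1 treatment gave 3 libraries and control IgG gave 1, with 125, 128 and 405 member cells in anti-PD-1 libraries 1, 2 and 3 and 780 in the IgG library. All cells, sgNT included, carried Cas9 and a guide, and each guide marks a pool of cells in which the individual edits were not read.

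The tricarboxylic acid (TCA) cycle oxidises acetyl groups in the mitochondrial matrix and hands electrons to the respiratory chain, whose complexes combine subunits encoded in the nucleus with some encoded in mitochondrial DNA. Citrate synthase (Cs) joins oxaloacetate to acetyl-CoA, Idh3g is the gamma subunit of the NAD-dependent isocitrate dehydrogenase, and malate dehydrogenase (Mdh2) regenerates oxaloacetate and takes part in the malate-aspartate shuttle together with the oxoglutarate-malate carrier Slc25a11. Ndufv3 is an accessory subunit of complex I, and Dhodh performs the inner membrane step of pyrimidine synthesis and passes its electrons to ubiquinone.

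The guides of 3 targets are shown because the results turn on them: the Mdh2 guides, whose cells changed in mitochondrial transcripts, the Cs guides, whose target transcript did not pass the test, and the Dhodh guides, which were found in few cells. Spacers are in lower case, and the capitals mark the NGG protospacer adjacent motif (PAM) where it lay in the same exon.
Mdh2_gRNA1: tcacgcacctgagagatcagGGG
Mdh2_gRNA2: gtgtgtgagcgatatcgtagAGG
Mdh2_gRNA3: gttggcaatgatgcaaaccaTGG
Cs_gRNA1: tccttccttcagatgtacgg
Cs_gRNA2: gaaccgagctaagtactggg
Cs_gRNA3: actgagcaatctgatacctaAGG
Dhodh_gRNA1: ttgatccagagtcggcgcacCGG
Dhodh_gRNA2: gtagaaatggtcgtcccccgTGG
Dhodh_gRNA3: ataaattccgaaatccagtaGGG

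Positions are from the GENCODE M21 transcripts on GRCm38, for the genes Mdh2 (ENSMUSG00000019179), Cs (ENSMUSG00000005683) and Dhodh (ENSMUSG00000031730). The Mdh2 spacers lay in coding exons on the strand opposite to the gene, at chr5:135787607-135787626 (gRNA1), chr5:135783403-135783422 (gRNA2, exon 2 of 9) and chr5:135786016-135786035 (gRNA3, exon 4 of 9). Guides 2 and 3 cut at 16.5% and 40.3% of the coding sequence. Mdh2_gRNA1 matched 1 of the 7 annotated Mdh2 transcripts over its whole length, and this was not the reference transcript. Its cut lay in exon 6 of the reference transcript, 8 bases from the exon edge. Cs_gRNA2 (chr10:128353190-128353209, exon 6 of 11) and Cs_gRNA3 (chr10:128350447-128350466, exon 3 of 11) lay on the gene's strand, and Cs_gRNA1 had no full match among the transcripts. The Dhodh spacers lay at chr8:109606277-109606296 and chr8:109606331-109606350, both in exon 2 of 9, and at chr8:109603464-109603483 in exon 3. Of all 18 spacers, 17 matched a transcript of the named gene and 15 were followed by an NGG within the exon.

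Total gene UMIs per library ranged from 142945121 to 155974184, and the median UMI count of a single-guide cell was highest at 16744.5 in anti-PD-1 library 1 and lowest at 6298 in the IgG library. T cell markers (Cd3d, Cd3e, Cd3g, Cd8a, Cd8b1, Trac, Cd2 and Cd5) summed to between 5545 and 7534 CPM (UMIs scaled to 1 common total per sum) in the member sums and to between 6152 and 6722 CPM in sgNT, and erythroid markers were at 0 in every member sum. The other lists ranged more widely in member sums, some of which hold 3 cells, than in sgNT sums: B or plasma cell markers from 34.4 to 133 CPM against 50.8 to 79.0 CPM, and macrophage, dendritic cell or neutrophil markers from 0 to 66.3 CPM against 20.5 to 40.0 CPM. Acinar or islet markers ranged from 0 to 31.4 CPM against 4.50 to 8.07 CPM, fibroblast or endothelial markers from 1.30 to 30.3 CPM against 5.91 to 8.01 CPM, and epithelial or tumour markers from 0 to 49.1 CPM against 18.9 to 30.02 CPM. The highest value was in a Dhodh sum for each of these lists except the epithelial one, where it was in an Mdh2 sum, and the part of these markers in the results was not tested. Barcodes in which the markers of a different cell type reached 10 UMIs did not enter the expression analysis, which removed 3 Cs, 2 Mdh2, 5 Slc25a11, 1 Ndufv3 and 26 sgNT cells. Between 30 and 93 barcodes were shared by each pair of libraries, and at most 2 of these had the same single guide in both.

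Dhodh guides were recovered in far fewer cells than the other members. The number of cells per guide was divided by that of sgNT in the same library, with the values given in the order anti-PD-1 1, 2, 3 and IgG. For Dhodh, 3, 3, 12 and 39 cells gave ratios of 0.105, 0.0897, 0.183 and 0.344, a mean of 0.180 ± 0.116 (SD, n = 4 libraries). All 4 libraries were low, the IgG library least so, and Dhodh ranked 4 from the lowest of the 81 targets with 3 guides. Dhodh_gRNA3 supplied 3, 3, 5 and 23 of these cells, whereas gRNA1 and gRNA2 had 0 cells in anti-PD-1 libraries 1 and 2, where a count of 0 allows a share of up to 0.118% and 0.115% of the single-guide cells. In those libraries 257 and 260 of the 280 guides had any cell, and 2 and 0 of the 34 nontargeting guides had none. In anti-PD-1 library 3 and the IgG library, all 34 nontargeting guides had more cells than gRNA1 and gRNA2.

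The mean ratio was 0.859 ± 0.364 for Cs, 0.887 ± 0.496 for Mdh2, 0.917 ± 0.251 for Idh3g, 1.15 ± 0.474 for Slc25a11 and 1.33 ± 0.276 for Ndufv3 (SD, n = 4 libraries each). The range over libraries included 1 for each of these except Ndufv3, which was above 1 in all 4 libraries. Over members and libraries, the called guide had a median of between 1 and 5 UMIs per cell. With only cells of at least 5 guide UMIs, Ndufv3 was at 1.28, 0.899, 1.11 and 1.62 and Slc25a11 at 1.28, 1.08, 1.94 and 1.74. By that count Slc25a11 lay above 1 in all 4 libraries and Ndufv3 did not. Over all single-guide cells, the ratio for Mdh2 was 0.386, 0.658, 0.962 and 1.54, and for Cs it was 0.561, 0.568, 0.993 and 1.31. For both targets the IgG library lay above the anti-PD-1 libraries. The divisor is a mean over 34 nontargeting guides, which single large guides can raise. In anti-PD-1 libraries 1 and 2 it was 9.5 and 11.1 cells, against medians of 7.5 and 8 and highest guides of 63 and 105 cells. In an exact sign-flip test 4 libraries cannot reach a two-sided p under 0.05, so these ratios are descriptions without a test. Single guides could stand out in 1 library, as Slc25a11_gRNA2 did with 64 cells in anti-PD-1 library 3, where 2 of the 280 guides had more. Guide abundance in the transferred cells was not analysed here.

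The transcript of the targeted gene was examined first. For this and all following gene comparisons, UMIs were summed over the cells of 1 target and 1 library, 9804 genes were tested with edgeR's quasi-likelihood test with library as a block, and p-values were adjusted by Benjamini-Hochberg over all these genes. Values after a log2 fold change are standard errors of the fit, CPM are scaled for library composition, and a gene was called at an adjusted p under 0.05. Libraries are treated as replicates, cells are not.

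The Mdh2 transcript was at 144, 254, 76.5 and 104 CPM in Mdh2 cells, against 326, 362, 301 and 314 CPM in sgNT cells. It was lower in all 4 libraries, without overlap, and fell by 1.28 ± 0.11 on the log2 scale (edgeR adjusted p = 2.6e-23). An Mdh2 UMI was found in 42.8% of Mdh2 cells and 86.2% of sgNT cells. It was called as lower for each of the 3 Mdh2 guides, with log2 fold changes of -0.92 ± 0.17 for gRNA1, -2.18 ± 0.18 for gRNA2 and -1.36 ± 0.13 for gRNA3.

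Idh3g was at 55.5, 30.3, 19.98 and 36.5 CPM in Idh3g cells and at 76.2, 86.7, 67.5 and 73.1 CPM in sgNT cells. The groups did not overlap, and the transcript fell by 1.20 ± 0.14 on the log2 scale (edgeR adjusted p = 3.0e-11). In the sums per guide, Idh3g itself was called for Idh3g_gRNA1 and gRNA3, at -1.995 ± 0.32 and -1.72 ± 0.34, and gRNA2 was at -0.99 ± 0.22 with an edgeR adjusted p of 0.076. The calls of Idh3g_gRNA1 numbered 1 (0.0128% of the 7815 genes tested per guide).

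Slc25a11 was at 38.3, 45.7, 55.5 and 37.0 CPM in its targeted cells, against 81.5, 85.9, 90.2 and 90.05 CPM in sgNT cells. It fell by 0.96 ± 0.13 on the log2 scale (edgeR adjusted p = 2.2e-08), again with no overlap. Guides 1 and 3 were called at -1.18 ± 0.25 and -1.02 ± 0.20, and gRNA2, the guide with the most cells, was at -0.75 ± 0.19 with an edgeR adjusted p of 0.33.

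Ndufv3 was at 176, 194, 259 and 209 CPM against 266, 301, 373 and 318 CPM in sgNT cells. Its level was lower within each library although the highest targeted sum, 259 CPM, came close to the lowest sgNT sum, and it fell by 0.59 ± 0.10 on the log2 scale (edgeR adjusted p = 3.2e-05). Guides 1 and 2 were called at -0.65 ± 0.11 and -0.54 ± 0.11, and gRNA3 was at -0.43 ± 0.15 (edgeR adjusted p = 0.85).

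Cs was at 55.2, 46.8, 31.0 and 42.9 CPM in Cs cells, against 69.6, 77.1, 63.4 and 61.3 CPM in sgNT cells. Each library was lower and the groups did not overlap, but the log2 fold change of -0.66 ± 0.16 missed the threshold (edgeR adjusted p = 0.16). Its 3 guides were at -0.27 ± 0.35, -1.06 ± 0.26 and -0.58 ± 0.28, and none was called. Dhodh itself could not be judged, with 5 UMIs in 57 targeted cells over all libraries. Its log2 fold change of 0.48 ± 0.76 was fitted on the 51 cells of anti-PD-1 library 3 and the IgG library. An edit need not lower the mRNA of its gene, so these values check the guide labels rather than the loss of protein.

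Mdh2 cells changed in a further group of genes, the transcripts of the mitochondrial genome. In Mdh2 cells 10 genes were called, 0.102% of those tested, of which 8 were higher (0.0816%) and 2 lower (0.0204%). Among the 8 higher genes, 7 were mitochondrially encoded mRNAs: mt-Nd2, mt-Nd3, mt-Nd4, mt-Nd4l and mt-Nd5 of complex I, mt-Cytb of complex III and mt-Atp6 of ATP synthase. The list of mitochondrially encoded mRNAs has 13 members, all tested, with a median log2 fold change of 0.47 against -0.01 over all genes. Its 3 cytochrome oxidase subunits, mt-Co1, mt-Co2 and mt-Co3, were not called.

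mt-Nd2, a core subunit of the membrane arm of complex I (chrM:3914-4951), was at 2647, 1853, 1705 and 1919.8 CPM in Mdh2 cells. In sgNT cells of the same libraries it was at 1076, 796, 517 and 809 CPM. The lowest Mdh2 sum lay above the highest sgNT sum, and the means were 2031 ± 420.2 and 799.6 ± 228 CPM (SD, n = 4 libraries). It rose by 1.38 ± 0.10 on the log2 scale (edgeR adjusted p = 6.2e-30).

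mt-Cytb, the cytochrome b of complex III (chrM:14145-15288), was at 4302, 3698, 3273 and 3299 CPM in Mdh2 cells and at 2567, 2298, 1581 and 2121 CPM in sgNT cells. All Mdh2 sums lay above all sgNT sums, and the transcript rose by 0.79 ± 0.08 on the log2 scale (edgeR adjusted p = 1.0e-16). mt-Nd4 rose by 0.78 ± 0.09 (edgeR adjusted p = 1.6e-12), from 1488, 1059, 859 and 1295 CPM in sgNT cells to 2431, 1591, 1984 and 1889 CPM in Mdh2 cells. mt-Nd4l, which overlaps mt-Nd4 on the mitochondrial genome, rose by 0.73 ± 0.11 (edgeR adjusted p = 1.0e-07), so reads of this pair may not be fully separate.

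The other called transcripts changed less. mt-Nd3 rose by 0.61 ± 0.11, mt-Nd5 by 0.55 ± 0.11 and mt-Atp6 by 0.47 ± 0.09 on the log2 scale, each higher than sgNT in all 4 libraries. For mt-Atp6 the sums were 6487, 4902, 3394 and 3661 CPM against 5391, 3749, 1865 and 2930.1 CPM, so the groups overlapped across libraries but not within a library. Without anti-PD-1 library 3, where sgNT cells had the lowest mitochondrial levels, mt-Atp6 was at 0.33 (edgeR adjusted p = 0.46), mt-Nd3 at 0.50 (0.23) and mt-Nd5 at 0.43 (0.70), and 6 genes in place of 10 were called.

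The remaining mitochondrial mRNAs did not pass the test. mt-Co1 was at 0.36 ± 0.09 (edgeR adjusted p = 0.071) and higher in 4 of 4 libraries, mt-Atp8 at 0.36 ± 0.14, mt-Nd1 at 0.25 ± 0.10, mt-Co2 at 0.17 ± 0.08 and mt-Nd6 at 0.16 ± 0.21. mt-Co3 (chrM:8607-9390) was at 6497, 5033, 3102 and 3245 CPM in Mdh2 cells and at 6790, 5109, 2609 and 4070.2 CPM in sgNT cells. It was lower in 3 of 4 libraries, with a log2 fold change of -0.03 ± 0.08 (edgeR adjusted p = 1.0).

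The makeup of the mitochondrial UMIs showed the same contrast within each library. mt-Nd2 held 7.02%, 6.49%, 7.36% and 8.17% of the mitochondrial UMIs of Mdh2 cells, against 3.53%, 3.55%, 3.75% and 3.98% in sgNT cells. The number of mt-Nd2 UMIs for each mt-Co3 UMI was 0.407, 0.368, 0.550 and 0.592 in Mdh2 cells and 0.158, 0.156, 0.198 and 0.199 in sgNT cells. Neither measure overlapped between Mdh2 and sgNT cells. Both come from the counts tested above and are given as a description on a scale that does not depend on the total UMIs of a cell.

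The shift was spread over the cells rather than held by a few. In each library, the mt-Nd2 share of mitochondrial UMIs was above the 90th percentile of sgNT cells in 8 of 11, 12 of 22, 39 of 61 and 115 of 175 Mdh2 cells, that is in 72.7%, 54.5%, 63.9% and 65.7%. Among cells of the other 5 targets the corresponding share was between 0% and 33.3%, the highest value being 1 of 3 Dhodh cells. When Mdh2 cells were split by whether an Mdh2 UMI was found, mt-Nd2 held 8.16%, 7.39%, 7.49% and 8.78% of mitochondrial UMIs in cells without one and 6.90%, 6.40%, 7.20% and 7.19% in cells with one. Cells without an Mdh2 UMI were higher in all 4 libraries, but they numbered only 2 and 3 in anti-PD-1 libraries 1 and 2. Cells without and with an Mdh2 UMI were not matched for depth or guide, and a link to the loss of Mdh2 was not tested. In sgNT cells the same split gave 2.995%, 3.78%, 3.40% and 3.64% without and 3.54%, 3.55%, 3.78% and 4.05% with an Mdh2 UMI, so that cells without one were lower in 3 of the 4 libraries.

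The 3 Mdh2 guides moved alike. With sums per guide, for which 7815 genes were tested, 9, 6 and 14 genes were called for gRNA1, gRNA2 and gRNA3, which is 0.115%, 0.0768% and 0.179% of those tested. Only libraries with at least 10 cells of a guide entered, which left 2, 2 and 3 libraries and 60, 89 and 97 cells. mt-Nd2 rose by 1.61 ± 0.13, 1.47 ± 0.13 and 1.43 ± 0.11 on the log2 scale (edgeR adjusted p = 8.7e-27, 4.5e-25 and 3.7e-32). mt-Nd4, mt-Cytb and mt-Atp6 were also called for each of the 3 guides. mt-Co1 was called for gRNA1 at 0.58 ± 0.13 and for gRNA3 at 0.44 ± 0.11, whereas mt-Co3 was at 0.03 ± 0.13, -0.08 ± 0.13 and 0.05 ± 0.10 and was called for none. Other than Mdh2, genes outside the mitochondrial genome were called for 1 guide each, such as Apobec3 for gRNA1 at 0.83 ± 0.17 and Txnip, a regulator of glucose uptake, for gRNA3 at -2.01 ± 0.42.

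The median mitochondrial share of all UMIs in a cell was also higher in Mdh2 cells. Over the cells of each library it was 3.57%, 2.79%, 2.37% and 2.34%, against 3.15%, 2.06%, 1.35% and 1.91% in sgNT cells, and exceeded sgNT by 0.411, 0.730, 1.02 and 0.423 percentage points. The difference had the same direction in all 4 libraries, which is too few for a two-sided exact p under 0.05. Averaged over libraries it was 0.646 points for Mdh2 and between 0.0768 and 0.223 for Cs, Idh3g, Slc25a11 and Ndufv3. In Dhodh cells it was 0.484 and 1.25 points in anti-PD-1 libraries 1 and 2, with 3 cells each, and 0.165 and 0.189 points in anti-PD-1 library 3 and the IgG library, with 12 and 39 cells. By the mean share in place of the median, Mdh2 cells exceeded sgNT by 0.735, 0.495, 1.21 and 0.253 points. Mean shares of single nontargeting guides also spread around the sgNT mean. They ranged from -0.43 to 0.56 points in the IgG library and from -0.50 to 0.85 points in anti-PD-1 library 3. In the IgG library the mean share of Mdh2_gRNA1, gRNA2 and gRNA3 exceeded that of 28, 33 and 21 of 34 nontargeting guides. In anti-PD-1 library 3 it exceeded that of 32, 31 and 32 of 32. The limit of 10% removed 6 of 69 Mdh2 cells and 14 of 756 sgNT cells in anti-PD-1 library 3. Median UMIs per cell were 23307, 18634, 11433 and 6121 in Mdh2 cells and 17583, 16966, 12303 and 6348 in sgNT cells, so depth was higher in 2 libraries and lower in the other two.

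The other lists of mitochondrial and nuclear genes held no further call in Mdh2 cells than Mdh2 itself. Of 37 nuclear complex I subunits 0 were called, with a median of -0.03. Of 35 nuclear subunits of complexes III to V 0 were called, with a median of -0.06. Of 24 biogenesis and chaperone genes tested 0 were called, with Phb at -0.40 ± 0.17 and Clpp, a matrix protease, at -0.42 ± 0.19 having the smallest p. Of 18 TCA cycle enzymes only Mdh2 was called, and of 18 effector genes 17 had a negative sign with a median of -0.35, but 0 were called, the smallest p being that of Gzme, a granzyme, at -2.70 ± 0.92 (edgeR adjusted p = 0.81). This lean was not particular to Mdh2 cells. Of the 18 effector genes, 15 were negative in Cs (median -0.32), 13 in Idh3g (-0.20), 13 in Slc25a11 (-0.11) and 14 in Dhodh cells (-0.80). In Ndufv3 cells 7 were negative, with a median of 0.19.

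The remaining calls in Mdh2 cells rested on few UMIs. Tmem171, a membrane protein gene, had 0 UMIs in 269 Mdh2 cells and 128 UMIs in 2704 sgNT cells, which is at least 3.58-fold lower when a floor of 3 counts over the group is used. The call was lost in 6 of 12 alternatives, with edgeR adjusted p = 0.033 in the reported fit. Trav3-4, a T cell receptor variable segment, had 15 UMIs in 2 cells of anti-PD-1 library 3.

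The contrast with the other members was tested directly. In 15 pairwise comparisons between the 6 targets, mt-Nd2 was called in all 5 that involved Mdh2. It was higher in Mdh2 cells than in Cs cells by 1.21 ± 0.10, in the comparison written as Cs minus Mdh2 (-1.21 on the log2 scale, edgeR adjusted p = 4.8e-22). Mdh2 minus Idh3g gave 1.36 ± 0.10, Mdh2 minus Slc25a11 1.36 ± 0.10, Mdh2 minus Ndufv3 1.26 ± 0.10 and Mdh2 minus Dhodh 1.57 ± 0.15. mt-Nd4 and mt-Cytb were called in the same 5 pairs. Mdh2 cells differed from Slc25a11 cells in 8 genes (0.0816% of 9804), from Ndufv3 cells in 7 (0.0714%) and from Dhodh cells in 15 (0.153%). Outside the pairs with Mdh2 or Dhodh, the called genes were the targeted genes of the pair, apart from Rnf214 and Ufc1, a factor of protein ufmylation. Against sgNT, mt-Nd2 was at 0.17 ± 0.10 in Cs, 0.02 ± 0.10 in Idh3g, 0.02 ± 0.10 in Slc25a11, 0.12 ± 0.10 in Ndufv3 and -0.19 ± 0.15 in Dhodh cells, and none was called. Over all 83 targets fitted, Mdh2 had the highest median of the 13 mitochondrial mRNAs, 0.47, followed by Man1a2 at 0.18.

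Cs cells had 0 called genes (0% of 9804), although 473 genes were under 0.05 before adjustment. DESeq2 called 1 gene. The mitochondrial mRNA with the smallest p was mt-Nd1, a complex I subunit, at 1784, 1324, 619 and 1017 CPM in Cs cells and at 2079, 1642, 968 and 1330.2 CPM in sgNT cells. It was lower in each library, with a log2 fold change of -0.38 ± 0.10 (edgeR adjusted p = 0.36). mt-Nd1 held 5.50%, 5.31%, 4.26% and 4.79% of the mitochondrial UMIs of Cs cells, all below the 6.83%, 7.32%, 7.03% and 6.54% of sgNT cells. Among the guides, Cs_gRNA1 had 1 called gene (0.0128% of 7815), Cs_gRNA2 0 and Cs_gRNA3 2 (0.0256%). Cs_gRNA3 was called for mt-Nd1 at -0.73 ± 0.16 (edgeR adjusted p = 0.037), while gRNA1 was at -0.53 and gRNA2 at -0.41 and neither was called. Cs and Mdh2 cells differed in mt-Nd1 by -0.63 ± 0.10 (Cs minus Mdh2, edgeR adjusted p = 3.1e-06), among 9 genes called in that pair, 0.0918% of those tested. mt-Nd5 at 0.36 ± 0.12 and mt-Co1 at 0.32 ± 0.09 were higher in 4 of 4 libraries of Cs cells and were not called.

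Of the 18 TCA cycle enzymes tested in Cs cells, 15 had a negative sign and 0 were called, with a median of -0.08 and Suclg2, a succinyl-CoA ligase subunit, at -0.77 ± 0.28 after Cs itself. In 28 genes of glycolysis and the hypoxia response 21 had a positive sign with a median of 0.11 and 0 calls, led by Ankrd37 at 0.72 ± 0.21 (edgeR adjusted p = 0.62). Of 25 G2/M genes 23 had a negative sign with a median of -0.30 and 0 calls, with Aurkb at -0.72 ± 0.27 first by p. When cells of other types were kept, 105 genes were called in Cs cells, led by keratin genes from 1 epithelial or tumour cell.

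In Idh3g cells the only gene called was Idh3g itself (0.0102% of 9804). The 35 nuclear subunits of complexes III to V all had a negative sign, with a median of -0.07 against -0.01 over all genes, and 0 were called. Of 37 nuclear complex I subunits 33 were negative, with a median of -0.11 and 0 calls, Ndufb4 at -0.26 ± 0.10 having the smallest p. The effector list held Gzme at -3.49 ± 1.03 (edgeR adjusted p = 0.88) and Gzmd at -3.40 ± 1.29, neither of which was called, and of the interferon-stimulated genes Isg15 was at 1.002 ± 0.41. Between Mdh2 and Idh3g cells 10 genes were called, 0.102% of those tested, among them Txnip (edgeR adjusted p = 0.0034).

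In Slc25a11 cells 2 genes were called (0.0204% of 9804), Slc25a11 and Rnf214, which encodes a RING finger protein. Rnf214 was at 7.67, 5.71, 5.42 and 9.68 CPM in Slc25a11 cells and at 13.0, 16.2, 19.3 and 18.3 CPM in sgNT cells. The groups did not overlap, and Rnf214 fell by 1.27 ± 0.27 on the log2 scale (edgeR adjusted p = 0.018), on 25 UMIs in 25 Slc25a11 cells. Slc25a11 cells differed in 3 genes each from Idh3g and from Ndufv3 cells, 0.0306% of those tested, and Rnf214 was among them in both pairs (Idh3g minus Slc25a11 1.58 ± 0.33, edgeR adjusted p = 0.014, and Slc25a11 minus Ndufv3 -1.47 ± 0.32, edgeR adjusted p = 0.026). The call held in 8 of 13 alternatives. Of 20 genes tested for entry into the cycle and for shuttles, Slc25a11 was the only call, and Slc25a12, a carrier of the same malate-aspartate shuttle, was at 0.32 ± 0.20.

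In Ndufv3 cells 2 genes were called (0.0204% of 9804), Ndufv3 and Timp1, and the 25 Timp1 UMIs came from 1 cell. The other 36 nuclear complex I subunits were not called, and neither were the 13 mitochondrial mRNAs, which had a median of 0.10. All 25 G2/M genes had a negative sign, with a median of -0.34 against -0.01 over all genes, and 0 were called, Kif23 at -0.60 ± 0.26 and Anln at -0.72 ± 0.33 having the smallest p. Of these genes 23 were negative in Cs (median -0.30) and 24 in Dhodh cells (-0.58), against 8 in Mdh2, 9 in Idh3g and 13 in Slc25a11 cells. Genes of a list may vary together, so their signs are not separate observations. Il2, the T cell growth factor, was at 1.998 ± 0.57 in Ndufv3 cells (edgeR adjusted p = 0.57). Ndufv3_gRNA1 had 3 called genes (0.0384% of 7815) and Ndufv3_gRNA2 6 (0.0768%). Il2 was called for Ndufv3_gRNA1 alone, at 2.77 ± 0.46 (edgeR adjusted p = 1.5e-05), whereas Gzmf was called for Ndufv3_gRNA2 alone, at 4.86 ± 0.82. Timp1, whose UMIs came from 1 cell, was also among the calls of Ndufv3_gRNA2. How many cells held the UMIs of Il2 and Gzmf is not given here, so these 2 calls may rest on few cells.

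In Dhodh cells 6 genes were called, all lower (0.0612% of 9804), from 51 cells of anti-PD-1 library 3 and the IgG library, since the other 2 libraries had too few cells for a sum. Gapdh, a glycolytic enzyme, was at 1409.6 and 2835 CPM in Dhodh cells, against 3592 and 3020.0 CPM in sgNT cells, and fell by 0.61 ± 0.12 on the log2 scale (edgeR adjusted p = 0.0054). Pkm, the pyruvate kinase, was at 356 and 679.8 CPM against 895 and 833 CPM and fell by 0.73 ± 0.16 (edgeR adjusted p = 0.012). Both were lower mainly in anti-PD-1 library 3, which held 12 Dhodh cells. The called guide had a median of 1 UMI in these cells, against 3 in sgNT cells of that library. At least 5 guide UMIs were found in 0, 2 and 1 of the cells of Dhodh_gRNA1, gRNA2 and gRNA3, so the guide calls of this sum rest on few UMIs.

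The ribosomal protein genes Rpl41 and Rplp0 fell by 0.39 ± 0.07 and 0.32 ± 0.06, the cold-inducible RNA-binding protein gene Rbm3 by 0.40 ± 0.09 and the tubulin gene Tubb5 by 1.18 ± 0.28. Tubb5 was at 315 and 353 CPM in Dhodh cells and at 751 and 721 CPM in sgNT cells, low in both libraries. Of 28 glycolysis and hypoxia genes 24 had a negative sign, with a median of -0.41 against -0.09 over all genes in this comparison, and Gapdh and Pkm were the 2 called. The Dhodh sum of the IgG library also held the highest B or plasma cell marker level of the member sums, and the part of these markers in the Dhodh results was not tested. Over 13 alternatives the call was lost in 8 for Tubb5, 7 for Rbm3, 5 for Rplp0, 4 for Rpl41 and 3 each for Gapdh and Pkm. Without anti-PD-1 library 3, 0 genes were called in Dhodh cells, and without the IgG library 28 were.

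Other lists in Dhodh cells had no called member. Of 17 p53 targets tested 14 had a positive sign, with a median of 0.41, Sesn1 at 1.85 ± 0.56 and Phlda3 at 2.66 ± 0.88 (edgeR adjusted p = 0.17 and 0.22). Of 24 G1/S genes 22 had a negative sign, with a median of -0.55 and Pcna, the replication clamp, at -0.91 ± 0.27. Of 20 genes of pyrimidine synthesis and salvage 15 had a negative sign, with a median of -0.32 and Tyms, the thymidylate synthase, at -1.51 ± 0.54. Of 13 precursor and memory genes 11 had a positive sign, with a median of 1.31.

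Over 16 gene lists and 6 targets, which make 96 combinations, 6 held a called member. These were the mitochondrial mRNAs in Mdh2 cells, glycolysis in Dhodh cells, and 4 lists in which the call was the targeted gene itself. The integrated stress response list, with 23 genes tested, had 0 calls in each of the 6 targets and medians between -0.06 and 0.04. The 64 targets outside the group that had sums in all 4 libraries had a median of 1 called gene and a highest count of 147, and 3 of them had more calls than Mdh2.

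A target by treatment term compared the effect in the IgG library with that in the anti-PD-1 libraries. It called 0 genes (0% of 9804) in Cs, Mdh2, Idh3g, Slc25a11 and Ndufv3 cells, where edgeR gave an unadjusted p under 0.05 for between 376 and 462 genes. For mt-Nd2 in Mdh2 cells the term was -0.19 ± 0.16 (IgG minus anti-PD-1, edgeR adjusted p = 1.0). It was negative for all 13 mitochondrial mRNAs, from -0.63 ± 0.40 for mt-Nd6 to -0.18 ± 0.14 for mt-Atp6, with the smallest p for mt-Co3 at -0.36 ± 0.13 (edgeR adjusted p = 0.97). The summed level of these mRNAs in Mdh2 cells was 1.29, 1.28 and 1.67 times that of sgNT in the anti-PD-1 libraries and 1.14 times in the IgG library. In Dhodh cells 5 genes were called, 0.0510% of those tested, from 12 cells of 1 anti-PD-1 library and 39 of the IgG library, so the spread comes from other targets and the calls compare these 2 sums rather than the treatments. With 1 IgG library its spread was taken to equal that of the others, and treatment cannot be told apart from that library.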

How the data were processed

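The authors sequenced Chromium 3' v3.1 gene expression and guide libraries from 4 sorted samples, 3 anti-PD-1 and 1 IgG, and made raw UMI counts per feature and barcode with Cell Ranger 3.1.0 on mm10. The deposited count matrices hold 32285 genes and 280 guide features, and the deposited guide calls give the guides per barcode from thresholds set by that tool. Which annotation release they used was not given in the sources used here. GENCODE M21 (GRCm38, the same build) gave gene and spacer positions by exact match to transcripts, 1-based.

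Barcodes with exactly 1 called guide, at most 10% mitochondrial UMIs and fewer than 10 UMIs of each other-type marker list were kept, which is also how doublets were treated. Counts were summed per target and library where at least 10 cells were present, which gave 312 sums over 83 targets and sgNT. After filterByExpr and TMM scaling, each target was compared with sgNT by edgeR 4.0.16 (glmQLFit and glmQLFTest, R 4.3.3) with library as a block, and p-values were Benjamini-Hochberg adjusted over 9804 genes at 0.05. The same model compared targets, single guides (7815 genes) and a target by IgG term. Alternatives used DESeq2 1.42.0, limma 3.58.1, RLE size factors and other filters, sums, references and libraries.

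Total counts per library and median UMIs are given with the results, and intervals and floors cover counting error only. On simulated counts for Mdh2, 95% of genes changed by 1 on the log2 scale and 48% of those changed by 0.5 were recovered when 9804 genes were tested. The changed genes were drawn from better expressed genes only, so genes with few UMIs were not covered. Counts were drawn with the same dispersion for all genes and without library effects, so recovery in the data may be lower. Replicates were numbered in the order of the samples. The sample titles place anti-PD-1 libraries 1 and 2 under 1 shared number, and the study names more mice than libraries, so a library may pool mice and libraries 1 and 2 may not be independent. The n of 4 counts libraries. With library as a block, p-values rest on the spread left between sums after target and library are fitted. That spread was estimated over the sums of all targets and sgNT, and it may be technical.

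Named genes were, per target, called genes other than the target with 1 sign in every library and no cell holding over 25% of their UMIs, up to 10 each way by p, and of each described list the called members or else the 2 smallest p. Some genes that this rule would name are left out for length, and 1 is not reported here. Genes outside this rule (Trav3-4, Timp1, calls of single guides, other mitochondrial mRNAs) were named after their values were seen. The members and the gene lists were chosen with earlier results of these data known.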

Additional observations from a re-analysis of the deposited data

Results flagged for a closer look

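The ratio of Dhodh cells to sgNT differed between 1 IgG library and 1 anti-PD-1 library for 5 genes, by a target by treatment term whose spread was borrowed from the other targets (IgG minus anti-PD-1 on the log2 scale). With 1 Dhodh sum in each arm this compares 2 libraries, and treatment cannot be told apart from library. These were Surf4 at 3.81 ± 0.82 (edgeR adjusted p = 0.017), Gapdh at 1.15 ± 0.20 (0.00052), Ppib at 0.87 ± 0.18 (0.013), Pgk1 at 1.58 ± 0.35 (0.023) and Ufsp2 at 9.16 ± 2.03 (0.023). Gapdh was at 1409.6 CPM in Dhodh cells of anti-PD-1 library 3 and at 2835 CPM in those of the IgG library, against 3592 and 3020.0 CPM in sgNT cells. Pgk1 was at 287 and 822 CPM, against 919 and 814 CPM. Ufsp2 had no UMI in the anti-PD-1 sum, so its fitted value is no bound on the difference. Surf4 had 1 UMI in the anti-PD-1 sum and 21 in the IgG sum, so its fitted value rests near the count floor. Each value rests on 12 cells of the anti-PD-1 library and 39 cells of the IgG library, and depth per cell differed between these libraries. The called guide had a median of 1 UMI in the 12 cells and of 3 UMIs in the 39 cells. The part of treatment, library and cell number in these differences was not tested.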

How the results depend on the processing

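In Mdh2 cells, mt-Nd2, mt-Cytb, mt-Nd4 and mt-Nd4l kept their call in all 13 alternatives run, mt-Nd2 between 1.23 and 1.49 on the log2 scale. Counts of called genes depended more on the setting. Without the filter on low counts they were 23 for Cs, 26 for Mdh2, 17 for Idh3g, 16 for Slc25a11, 32 for Ndufv3 and 83 for Dhodh. With the other targets as reference they were 7 for Cs, 3 for Idh3g, 8 for Ndufv3 and 24 for Dhodh. DESeq2 called 1 for Cs, 1 for Slc25a11, 1 for Ndufv3 and 17 for Dhodh. Sums per guide gave 1 for Cs, 4 for Ndufv3 and 0 for Dhodh. limma on means over cells gave 1 for Slc25a11, 1 for Ndufv3 and 303 for Dhodh, RLE size factors gave 2 for Dhodh, and without the mitochondrial limit Ndufv3 had 1. With cells of other types kept, Cs had 105 and Slc25a11 5, Idh3g_gRNA3 had 1 in place of 2, and Slc25a11_gRNA2 had 9 in place of 0. Leaving out 1 library at a time gave between 0 and 2 calls for Cs, 6 and 12 for Mdh2, 1 and 2 for Slc25a11 and 0 and 28 for Dhodh. The Mdh2 count was 6 without anti-PD-1 library 3, and Dhodh had 0 without that library. The Cs transcript in Cs cells passed the threshold with the other targets as reference (-0.69), without the filter on low counts (-0.71) and with other cell types kept (-0.63). The Dhodh transcript in Dhodh cells changed sign with sums per guide (-4.55) and without anti-PD-1 replicate 3 (-0.78), its range when libraries were left out being -0.78 to 1.59. The causes were not tested. Targets and sgNT were compared within libraries by the library block of the reported fit. Between the treatments, no pairing exists. No paired analysis was possible because replicate numbers follow sample order and the IgG group has 1 library. For Dhodh, 51 cells limit what can be detected.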
